A study of Mus musculus with 219 samples.

Results

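The choroid plexus genes examined here were Ttr, Kl, Prlr, Tmem72, Slc4a5, Mfrp, Cldn2, Folr1 and Clic6, 9 of the 55487 gene identifiers in each of the tables of RNA sequencing counts from mouse cortex. They were taken from a fixed list of symbols, each matched to its Ensembl identifier, and all 9 were found in both tables and passed the filter on low counts in both. The tissue was left prefrontal cortex, and 218 libraries were analysed. The circadian atlas had 92 libraries from wild-type males and females in home cages on a cycle of 12 h light and 12 h dark, collected at about 12 weeks of age at 8 zeitgeber times (ZT, hours after lights on), with 6 libraries per sex at each time and 5 at ZT18 and ZT21.

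The other table had 126 libraries, all collected at ZT6. HET/TG mice were Snord116+/-Ctg+/-, HET/WT mice Snord116+/-Ctg-/-, WT/TG mice Snord116+/+Ctg+/- and WT/WT mice Snord116+/+Ctg-/-. Males and females were moved at about 8 weeks of age into light-controlled incubators for 7 days and were then entrained for 22 days at 22 °C to days of 11 h light with 11 h dark (11:11) or of 12 h each (12:12). The set called CLAMS went into indirect calorimetry chambers after entrainment and is labelled D:D at collection, and the set called RW spent the last 7 days of entrainment in cages with running wheels and is labelled L:D. Each of the 32 groups held 4 libraries, except 2 groups of WT/TG males with 3. The labels call the libraries biological replicates.

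The choroid plexus is the tissue in the brain ventricles that secretes cerebrospinal fluid. It is a sheet of cuboidal epithelial cells, joined by tight junctions, around leaky capillaries, and it is continuous with the ciliated ependyma that lines the ventricles. It is not a part of the cortex, and its epithelium makes a few transcripts at very high levels, above all Ttr.

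The products of the 9 genes have different jobs in that epithelium. Ttr encodes transthyretin, a carrier of thyroid hormone and of retinol-binding protein that the epithelium secretes into cerebrospinal fluid. Kl encodes klotho, a co-receptor for the hormone FGF23, and Prlr encodes the prolactin receptor. Slc4a5 encodes a sodium bicarbonate cotransporter, Clic6 a protein of the chloride intracellular channel family, and Folr1 the folate receptor alpha. Cldn2 encodes claudin-2, a pore-forming protein of tight junctions. Mfrp encodes a membrane frizzled-related protein, best known from the retinal pigment epithelium, and Tmem72 a transmembrane protein.

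RefSeq promoter windows (build GRCm38.p6) were found for 6 of the 9 genes, as 8 windows, of which the 250 bases before the start were read. The windows of Kl and Prlr are shown because these genes kept a fitted daily curve when the level of Ttr was in the model, and that of Mfrp because it held the OTX2 core TAATCC. For Prlr the window of the first annotated start is given. All 3 are on the plus strand and run from 5′ to 3′, and capitals mark the motif.
Kl, chr5:150952357-150952606: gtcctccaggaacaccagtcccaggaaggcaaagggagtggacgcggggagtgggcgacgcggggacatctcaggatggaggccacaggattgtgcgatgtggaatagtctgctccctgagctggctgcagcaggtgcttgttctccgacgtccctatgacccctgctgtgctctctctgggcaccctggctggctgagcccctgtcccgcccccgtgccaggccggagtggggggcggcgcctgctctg
Prlr, first of 3 annotated starts, chr15:10176988-10177237: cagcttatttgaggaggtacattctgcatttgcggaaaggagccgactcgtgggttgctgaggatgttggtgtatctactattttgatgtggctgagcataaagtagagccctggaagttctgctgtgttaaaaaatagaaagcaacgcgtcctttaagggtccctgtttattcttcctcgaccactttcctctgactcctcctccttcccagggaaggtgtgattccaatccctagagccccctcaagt
Mfrp, chr9:44101520-44101769: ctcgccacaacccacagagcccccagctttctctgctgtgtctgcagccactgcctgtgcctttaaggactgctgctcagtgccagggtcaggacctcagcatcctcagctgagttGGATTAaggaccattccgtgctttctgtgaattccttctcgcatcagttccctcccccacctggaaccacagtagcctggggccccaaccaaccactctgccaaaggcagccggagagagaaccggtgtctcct
The motifs searched on both strands were TAATCC, a core recognised by OTX2, the homeodomain factor of choroid plexus epithelium, CACGTG, the E-box of clock factors, and TTATGTAA, a D-box. TAATCC was in 1 of the 8 windows, on the minus strand of Mfrp, against 6.25% of the 32851 windows in the RefSeq table. CACGTG was in 0 of the 8 windows, against 6.02% of all, and TTATGTAA was in 1, that of the third Prlr start, against 0.819% of all. A match is a description of letters and was not tied to binding here.

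The genes lie on 8 chromosomes (build mm10, GENCODE release 21, positions 1-based): Ttr at chr18:20665280-20674321, Kl at chr5:150952607-150993817, Prlr at chr15:10177238-10349180, Tmem72 at chr6:116679063-116716913, Slc4a5 at chr6:83219828-83304945, Mfrp at chr9:44101729-44109187, Cldn2 at chrX:139800828-139811386, Folr1 at chr7:101858331-101870788 and Clic6 at chr16:92485736-92541243. Mfrp shares 1589 exonic bases with C1qtnf5 on the same strand and 648 with Gm20444 on the other, and Prlr shares 203 with Gm21973, so reads there cannot be assigned to 1 gene with certainty.

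Levels are given in CPM, counts brought to a common library size with TMM scaling. Depth was 13 to 18.4 M (mega) counts per library in the atlas and 12.7 to 29.9 M at ZT6. At that depth a count of 0 allows up to 0.146 to 0.254 CPM in the atlas and 0.103 to 0.462 CPM at ZT6 (3 counts per library, counting error only). A library labelled HET/WT (RW female, 11:11, replicate 3) had 167 CPM of Snhg14, the host transcript of Snord116, where the other 31 HET/WT libraries had 20.8 to 54.3 CPM and the 32 WT/WT libraries 116 to 281 CPM. The CLAMS female on 11:11 with the HET/TG genotype, replicate 4, was the highest library of the ZT6 table in all 9 genes. Where tests were refitted without either library, results that change are given with and without it.

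The 9 genes ranged from near or at 0 to high levels between mice of the same group. Ttr was between 0.66 and 870 CPM in the atlas, with a median of 6.34 CPM, and between 0.351 and 2390 CPM at ZT6, with a median of 16 CPM. The highest atlas library was thus 1320 times the lowest, and the highest ZT6 library 6820 times the lowest. No library was without Ttr. In bulk tissue, more cells of a type and more RNA per cell cannot be told apart.

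Kl and Clic6 kept a low level in nearly every library. Kl was between 0.788 and 50.7 CPM in the atlas (median 2.71) and between 0.794 and 156 CPM at ZT6 (median 3.55). Clic6 was between 0.264 and 31.7 CPM in the atlas (median 1.56) and between 0 and 78.3 CPM at ZT6 (median 2.29), where it was at 0 in 2 of 126 libraries. Prlr had a median of 1.32 CPM in the atlas (0.143 to 29.6) and 1.51 CPM at ZT6 (0 to 103), with 3 ZT6 libraries at 0.

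The transporter, junction and membrane genes were at the floor in many libraries. Mfrp was at 0 in 27 of 92 atlas libraries and 39 of 126 ZT6 libraries, and reached 12.3 and 25.6 CPM. Slc4a5 was at 0 in 21 and 28 libraries and reached 10.3 and 23.2 CPM, and Cldn2 was at 0 in 23 and 25 libraries and reached 6.77 and 19.7 CPM. Tmem72 was at 0 in 11 and 14 libraries and reached 18 and 42.3 CPM, again with the atlas first. Folr1 had medians of 0.352 CPM in the atlas and 0.472 CPM at ZT6 and highest values of 7.69 and 18.4 CPM.

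Per kilobase of exon, the order in the libraries at the median and at the top was similar. Ttr stood first, with an atlas median of 5.35 and a highest value of 734 CPM per kb. Clic6 (median 0.398, highest 8.09), Kl (0.29 and 5.43) and Folr1 (0.153 and 3.35) followed. Mfrp (highest 2.83), Cldn2 (2.04), Prlr (1.93), Slc4a5 (1.78) and Tmem72 (1.05) were lowest at the top of the range on this scale, and their library ranges overlapped.

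Few genes varied as much between mice of 1 group. The SD of log2(CPM + 0.5) within groups was 3.19 for Ttr in the atlas, the highest of the 17193 genes tested, against a median of 0.16 over all of them. The other 8 ranked from 3 (Tmem72, SD 1.63) to 17 (Folr1, SD 1.12). At ZT6, Ttr again ranked 1 of 18841 genes (SD 3.28, against a median of 0.22), Tmem72 ranked 2 (SD 1.75), Clic6 ranked 3 (SD 1.58) and the rest ranked down to 17.

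A gene was counted as high in a library above 4 times its median in that table and with at least 10 counts, and a library as high with at least 5 of the 9 genes high. By that rule 26 of 92 atlas libraries (28.3%) and 43 of 126 ZT6 libraries (34.1%) were high. Most libraries were at either end of the count. Of them, 58 atlas libraries had 0 genes high and 19 had all 9, and at ZT6 74 had 0 and 29 had all 9. Near the threshold, the atlas library with 5 genes high had 131 CPM of Ttr and the 3 libraries with 4 genes high had 60.4 to 108 CPM, and at ZT6 the 2 libraries with 5 had 115 and 126 CPM and the 2 with 4 had 89.0 and 119 CPM.

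**Figure D1:**
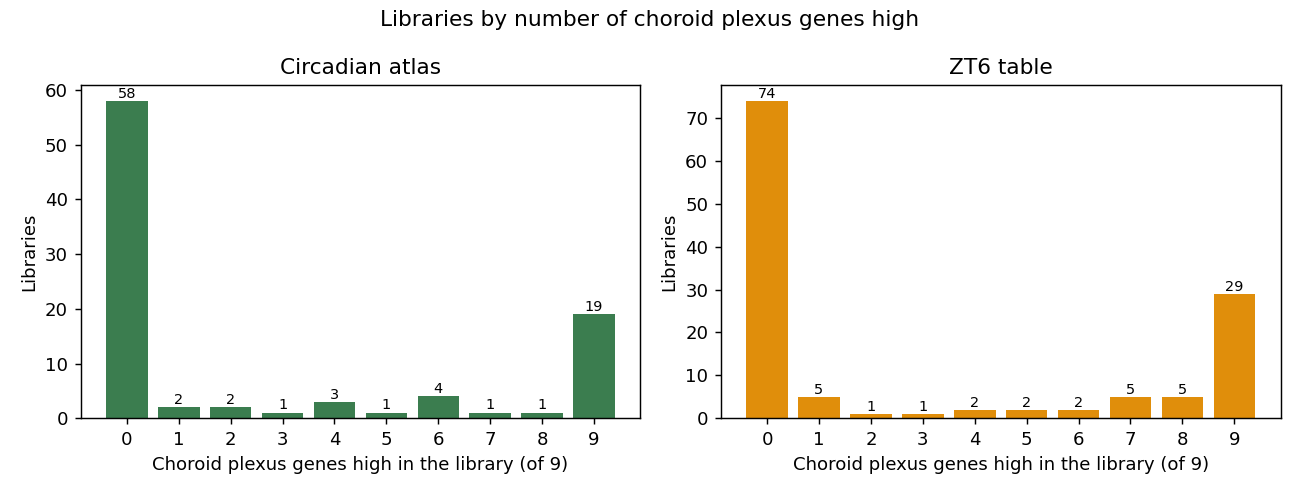
Number of libraries (y axis) by how many of the 9 genes were high in them (x axis), in the circadian atlas on the left and the ZT6 table on the right. Bars stand for counts of libraries, and the tallest are at 0 and 9 genes: 58 and 19 in the atlas and 74 and 29 at ZT6.

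The 9 genes varied together across libraries. Over the 36 pairs of genes, Pearson's r of log2(CPM + 0.5) was 0.89 (Kl with Clic6) to 0.99 (Tmem72 with Mfrp) in the 92 atlas libraries, with a median of 0.94. At ZT6, over 126 libraries, it was 0.90 (Ttr with Prlr) to 0.98 (Kl with Tmem72), with a median of 0.94. Spearman's rho was lower, from 0.68 (Prlr with Folr1) to 0.87 (Ttr with Mfrp) in the atlas and from 0.75 (Cldn2 with Folr1) to 0.92 (Ttr with Mfrp) at ZT6. In each of the 72 pairs the permutation p was 1e-05 for r and for rho, two-sided, the smallest that 100000 permutations can give, and 1e-05 after Benjamini-Hochberg adjustment over the 72. The 9 genes were chosen with earlier results of these data known, and most libraries had either none or all of them high. The pooled r, rho and p are therefore descriptions and no independent test. Because the 9 genes varied together, a shared direction in a comparison below does not count as 9 separate observations.

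The r values were similar without the 2 extreme libraries of each pair and within groups and sexes. Most libraries had none or all of the genes high, and leaving out 2 libraries cannot remove that split. High and low libraries also occurred within each sex and within groups, so these values are descriptions and no independent test. Without the 2 libraries farthest from the median of the first gene of each pair, r was 0.87 to 0.98 in the atlas and 0.89 to 0.98 at ZT6. On deviations from group means it was 0.92 to 0.99 in the atlas and 0.90 to 0.98 at ZT6. Within males it was 0.90 to 0.99 in the atlas and 0.86 to 0.98 at ZT6, and within females 0.90 to 0.98 and 0.92 to 0.99. All genes of a library share its depth and scaling. The relation was curved, with little slope among libraries with low Ttr, so r mainly describes the libraries with intermediate and high levels.

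**Figure D2:**
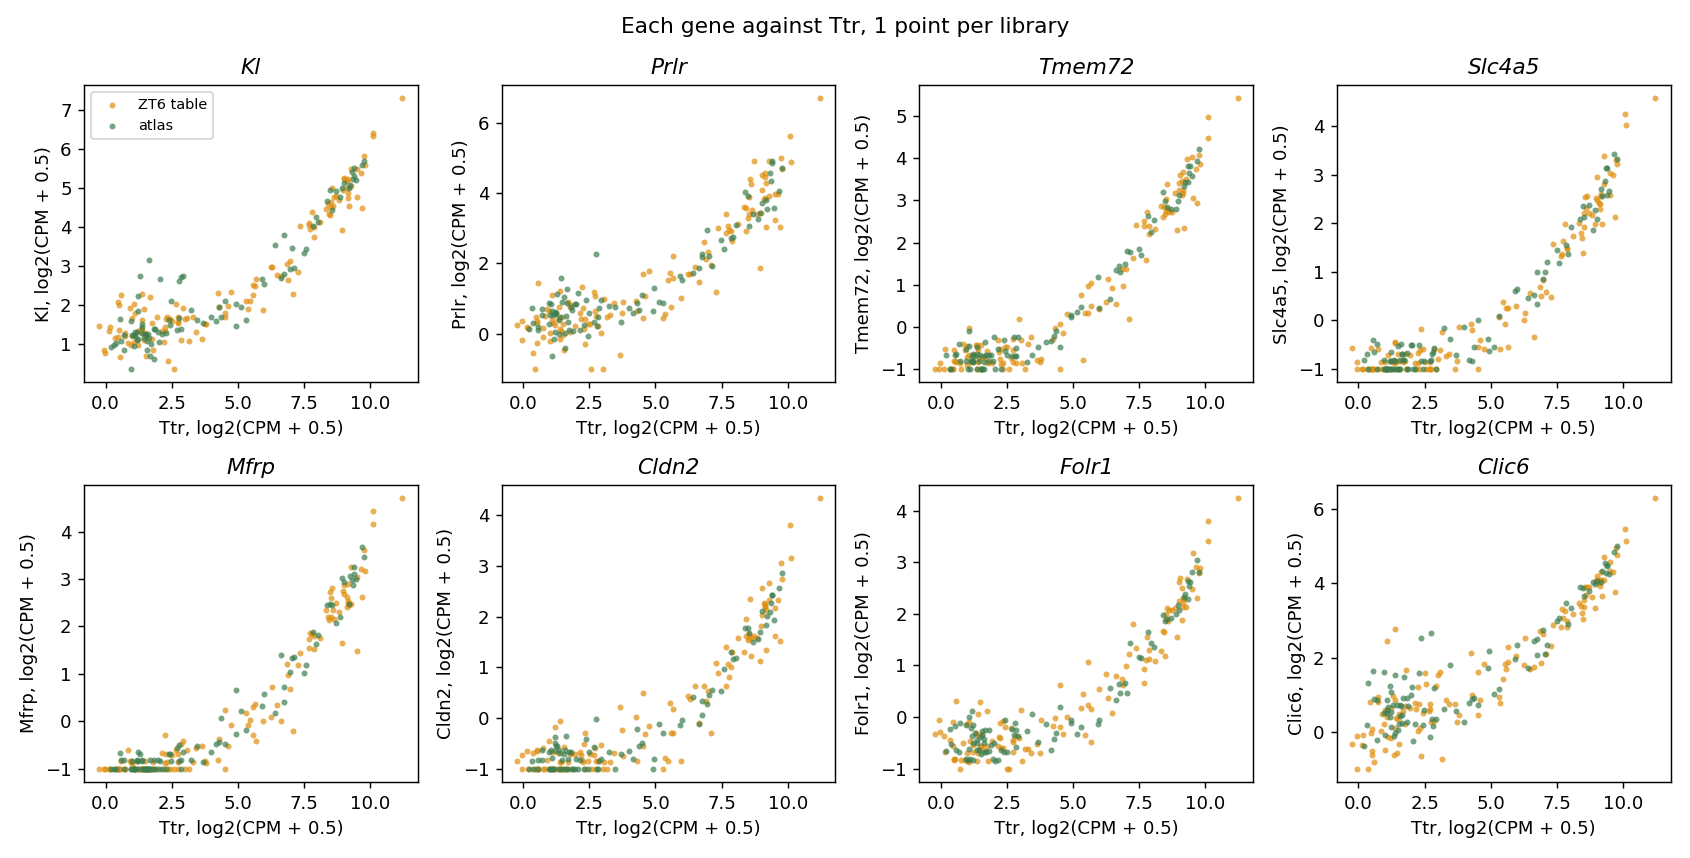
Each of the other 8 genes (y axis) against Ttr (x axis), both as log2(CPM + 0.5), with 1 point per library, atlas in green and ZT6 in orange. All 8 rise with Ttr at high Ttr, while at low Ttr Kl, Prlr and Clic6 scatter without a slope and Tmem72, Slc4a5, Mfrp and Cldn2 sit near the lower limit of the scale.

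The genes most like the 9 were mainly other known choroid plexus genes. Likeness was Spearman's rho with the mean standardised log2 level of the 9, over libraries. In the atlas the first 5 were Otx2 (rho 0.82), F5, the coagulation factor V gene (0.79), 2900040C04Rik (0.77), 1500015O10Rik (0.77) and Kcne2, a potassium channel subunit (0.77), and then Wdr86, Lbp, the water channel gene Aqp1, Col8a2 and Slc16a8 (0.74 to 0.72). At ZT6 they were Otx2 (0.88), Kcne2 (0.88), Sostdc1, a secreted BMP and WNT antagonist (0.86), Prr32 (0.85) and Drc7 (0.84), and then Krt18, 2900040C04Rik, F5, Wdr72 and Slc16a8 (0.84 to 0.81). Of these 10, 8 in the atlas and 6 at ZT6 were on a list of 39 symbols of other choroid plexus genes, 38 of them found in the tables. The list was chosen with earlier results of these data known, so the overlap is a description and no test.

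Lists of genes of neighbouring tissues followed the 9 less closely. The other choroid plexus genes had a median rho of 0.64 in the atlas and 0.74 at ZT6 over the 37 of 38 that passed the filter, against 0.00 and 0.01 over all genes. The 13 ependymal genes tested had medians of 0.48 in the atlas (0.21 to 0.58) and 0.33 at ZT6 (-0.07 to 0.6). Dnah11, an axonemal dynein, was at 0.58 and 0.57, at or near the top of both ranges. Meningeal genes had medians of 0.23 and -0.08, endothelial and mural genes -0.03 and -0.08, blood genes -0.03 and -0.14, and cortical excitatory neuron genes -0.25 and -0.02. Striatal neuron genes had 0.05 in the atlas and 0.41 at ZT6, and hippocampal genes 0.36 and 0.05. None of these lists had a gene at 0 in all libraries of a table, and the sum of the cortical excitatory neuron genes was 1690 to 2730 CPM in the ZT6 libraries.

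The atlas asked how expression in cortex follows the time of day. Ttr was high in some mice at all 8 times. Its medians, in time order from ZT0 to ZT21 every 3 h, were 45.3, 45.5, 3.59, 6.83, 6.53, 3.48, 2.96 and 3.54 CPM (n = 12 each, 10 at ZT18 and ZT21). The highest libraries had 870, 677, 582, 263, 140, 818, 716 and 519 CPM and the lowest 1.46, 1.64, 0.801, 0.959, 0.66, 0.757, 1.59 and 1.62 CPM at the same times. The ranges of all 8 times overlapped, and ZT12 had the lowest maximum.

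Kl and Prlr, like Ttr, had high medians at ZT0 and ZT3, but differed from it later in the day. Kl had medians of 6.04, 9.84, 1.93, 2.59, 2.36, 1.81, 3.06 and 5.45 CPM from ZT0 to ZT21, with highest values of 50.7, 45.4, 31.4, 17, 7.26, 47.2, 36.1 and 34.4 CPM. Prlr had medians of 2.3, 2.36, 0.951, 1.17, 0.9, 1.14, 2.05 and 1.71 CPM, with highest values of 25.7, 29.6, 13.6, 7.97, 3.32, 16.2, 11.5 and 12.6 CPM. The medians of both genes were above their atlas medians at ZT0, ZT3, ZT18 and ZT21 and below them at ZT6, ZT9, ZT12 and ZT15. Ttr was above its atlas median at ZT9 and ZT12 and below it at ZT18 and ZT21.

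**Figure D3:**
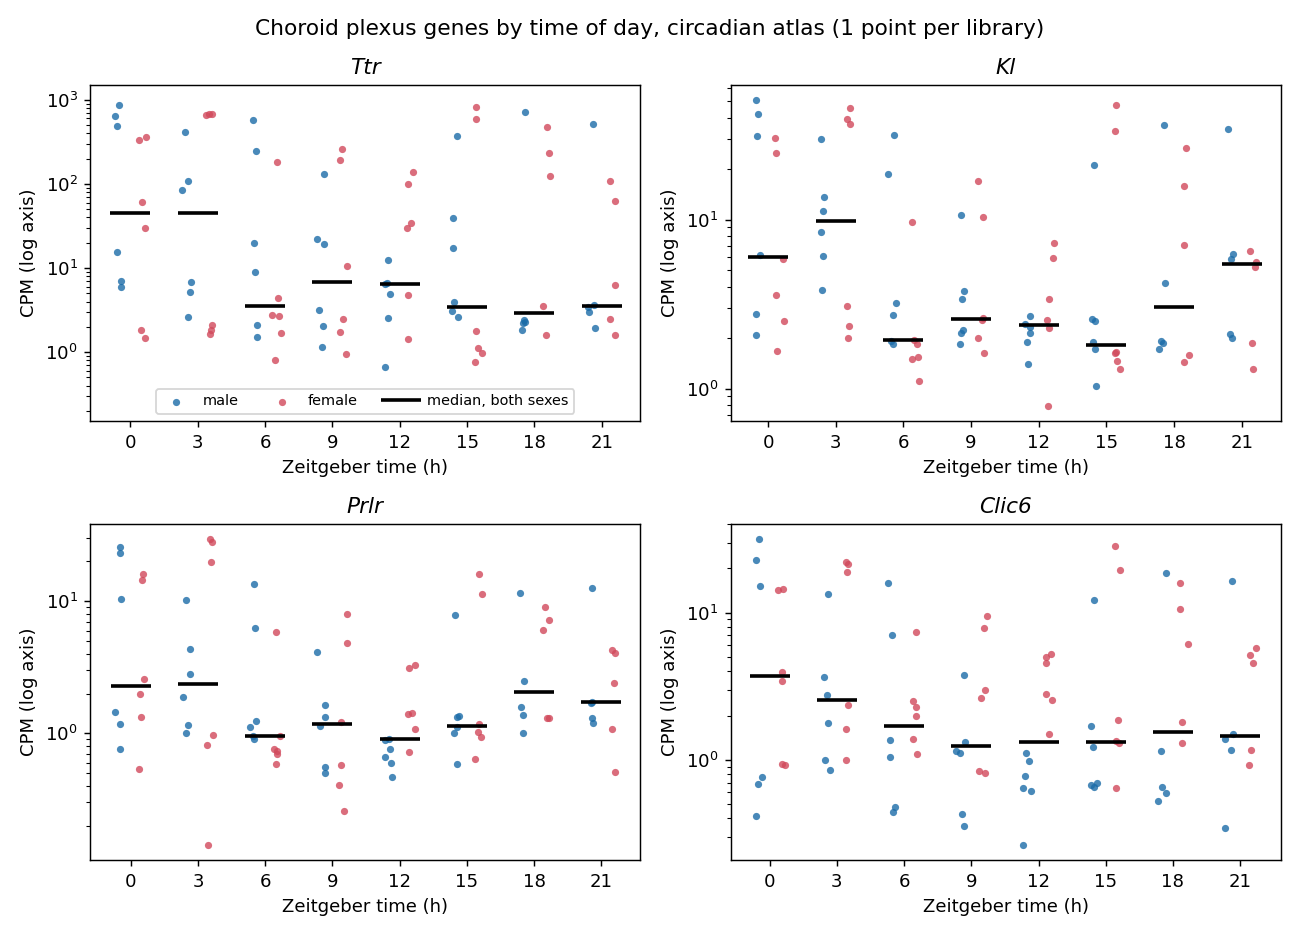
Levels of Ttr, Kl, Prlr and Clic6 (CPM, log axis) at the 8 zeitgeber times (x axis, hours) in the atlas, with 1 point per library, males left of females at each time, and bars at the median of both sexes. The ranges overlap at all times, and the median of Ttr is 45.3 CPM at ZT0 and 45.5 CPM at ZT3 against 2.96 to 6.83 CPM at the other times.

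High libraries were most frequent in the early light phase. They were 5 of 12 at ZT0, 6 of 12 at ZT3, 3 of 12 at ZT6, 3 of 12 at ZT9, 1 of 12 at ZT12, 3 of 12 at ZT15, 4 of 10 at ZT18 and 1 of 10 at ZT21. In males there were 12 of 46 and in females 14 of 46. These counts were not tested.

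A 24 h curve passed the test for 5 of the 9 genes, while 41.4% of all 17193 genes passed the same test. These were Prlr (adjusted p = 0.000698), Kl (0.00569), Clic6 (0.0214), Cldn2 (0.0296) and Tmem72 (0.045), by edgeR's quasi-likelihood test with Benjamini-Hochberg adjustment over all genes. The peak-to-trough difference on the log2 scale was 2.11 ± 0.48 (SE) for Prlr, 1.78 ± 0.47 for Kl, 1.60 ± 0.49 for Clic6, 1.89 ± 0.62 for Cldn2 and 1.90 ± 0.65 for Tmem72. Mfrp (1.91, adjusted p = 0.058), Slc4a5 (1.71, 0.0704), Folr1 (1.35, 0.0943) and Ttr (2.14, 0.108) did not pass. The median over the 9 was 1.89, against 0.14 over all genes tested.

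Fitted peaks fell around lights on in all 9 genes, including Mfrp, Slc4a5, Folr1 and Ttr, whose curves did not pass. The 9 genes varied together across libraries, so their peaks are not separate observations. They were between 22.5 h (Mfrp) and 23.8 h (Prlr), and from 22.9 h (Clic6) among the genes that passed. The 95% interval of the Prlr peak ran from 22.1 h to 1.54 h and that of Kl from 21.5 h to 1.52 h. High libraries were 4 of 10 at ZT18, 1 of 10 at ZT21 and 5 of 12 at ZT0, so a single 24 h curve follows the times only in part. In males alone 5 genes passed (25.9% of all genes) and in females alone 0 (19.2%). The difference in rhythm between the sexes passed for 0 of 9 (13 of 17193 genes, 0.0756%), with no member at an unadjusted p under 0.05. Of the libraries numbered 1 to 24 in each sex 1 gene passed, Prlr (33% of all genes), and of those numbered 25 to 46 0 passed (11.7%). DESeq2 called 3 and a rank-based test in limma 2, Kl and Prlr (42% of all genes each). Without the libraries of replicate number 1, 2 or 6 the same pair was called, and without number 3, 8 genes were.

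Kl and Prlr kept a daily curve when Ttr was in the model. With the Ttr level of each library as a spline covariate, an alternative chosen after seeing the data, the peak-to-trough difference was 0.67 ± 0.13 for Kl, with a peak at 0.66 h (adjusted p = 0.000107), and 0.77 ± 0.15 for Prlr, with a peak at 23.1 h (adjusted p = 0.000161), by edgeR. That is a fold of 1.60 for Kl and 1.70 for Prlr. The other 6 genes had 0.15 to 0.28 and adjusted p from 0.443 to 0.718. Of all genes 38.1% passed in that model.

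**Figure D4:**
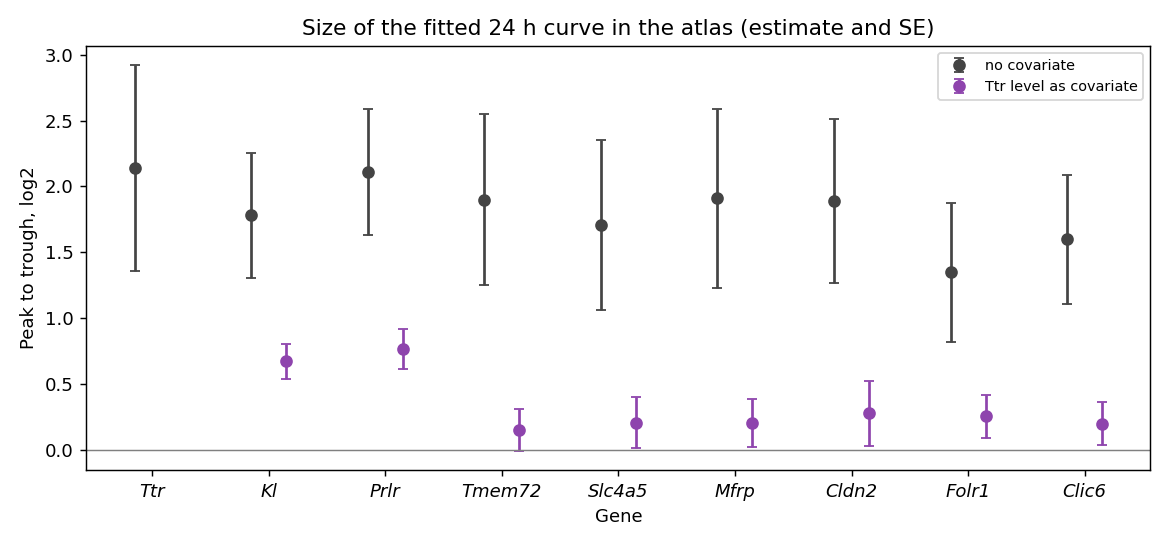
Peak-to-trough difference of the fitted 24 h curve in the atlas (y axis, log2, with SE bars) for each gene (x axis), without a covariate in dark grey and with the Ttr level as a covariate in purple. With the covariate Kl (0.67) and Prlr (0.77) stand above the other 6 genes, which lie between 0.15 and 0.28.

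Among the other choroid plexus genes, 14 of 37 passed the rhythm test (37.8%), where 41.4% of all genes did. Their median peak-to-trough difference was 0.62, against 0.14 over all genes. Car12, a carbonic anhydrase, had a peak-to-trough difference of 1.23 with a peak at 0.571 h (adjusted p = 3.37e-06, edgeR), Slc29a4, a monoamine transporter, 1.14 at 1.06 h (adjusted p = 6.38e-05) and Cldn1, a claudin, 1.14 at 0.823 h (adjusted p = 0.000324). Ependymal genes passed in 4 of 13, blood and striatal neuron genes in 0 of 7 and 0 of 15, and core clock genes in 19 of 20. Hippocampal genes passed in 9 of 10, with a median of 1.45, and Fibcd1, Spink8 and Lct peaked at 1.21, 1.31 and 1.58 h. The summed level of the hippocampal list was 103 to 278 CPM at ZT0, 110 to 302 at ZT3, 99.2 to 296 at ZT6, 101 to 161 at ZT9, 101 to 141 at ZT12, 97.8 to 131 at ZT15, 103 to 198 at ZT18 and 104 to 262 at ZT21. That of the ependymal list was 12.6 to 37.5 CPM at ZT0, 13.6 to 34.8 at ZT3 and 8.82 to 29.3 at ZT6. It was 13.4 to 22.6 CPM at ZT9, 9.16 to 23.1 at ZT12 and 8.54 to 29.9 at ZT15. At ZT18 it was 12.4 to 23.6 CPM and at ZT21 12.8 to 25.7 CPM, and all 8 ranges overlapped. Their part in the result was not tested.

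None of the 9 genes passed the test for a sex difference in the atlas. Male and female libraries had different name prefixes there, so sex and the name series cannot be told apart. Ttr was at 0.66 to 870 CPM in males (median 6.53) and 0.757 to 818 CPM in females (median 5.5), with n = 46 each, and the ranges overlapped almost whole. The male minus female difference was negative in all 9 genes, from -0.65 ± 0.35 (Clic6) to -0.13 ± 0.33 (Kl) on the log2 scale, and 0 of 9 passed (41.1% of all genes), with 0 at an unadjusted p under 0.05 in edgeR. DESeq2 (41.1% of all genes) and the rank-based test (42.6%) each called 1. Clic6 had a median of 1.12 CPM in males (0.264 to 31.7) and 2.71 CPM in females (0.641 to 28.5). With the Ttr level as a covariate Clic6 was 0.76 ± 0.12 log2 units lower in males (adjusted p = 6.18e-08, edgeR), the 1 call among 8 genes (42% of all genes). Other lists differed by sex too. Striatal neuron genes were lower in males in 15 of 15 (median -1.86), with a summed level of 202 to 799 CPM in males and 214 to 2360 CPM in females. Blood genes were higher in males in 7 of 7 (median 0.36), at 86.5 to 540 CPM in males and 58.8 to 164 CPM in females. Hippocampal genes were higher in males in 8 of 10 and lower in 1 (median 0.63), at 97.8 to 302 CPM in males and 103 to 259 CPM in females. Their part in the result was not tested.

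The CLAMS and RW sets were compared at ZT6. Ttr was at 0.462 to 734 CPM in CLAMS males (median 7.61, n = 31), 0.476 to 2390 CPM in CLAMS females (median 8.6, n = 32), 0.351 to 884 CPM in RW males (median 26.6, n = 31) and 0.63 to 1110 CPM in RW females (median 45.1, n = 32). Prlr had medians of 0.886, 1.65, 2.96 and 2.61 CPM in the same order, and Clic6 1.17, 2.21, 5.74 and 2.8 CPM. The ranges of all 4 overlapped, and CLAMS males were lowest at the median in Ttr, Prlr and Clic6. High libraries were 4 of 31 CLAMS males, 11 of 32 CLAMS females, 15 of 31 RW males and 13 of 32 RW females.

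**Figure D5:**
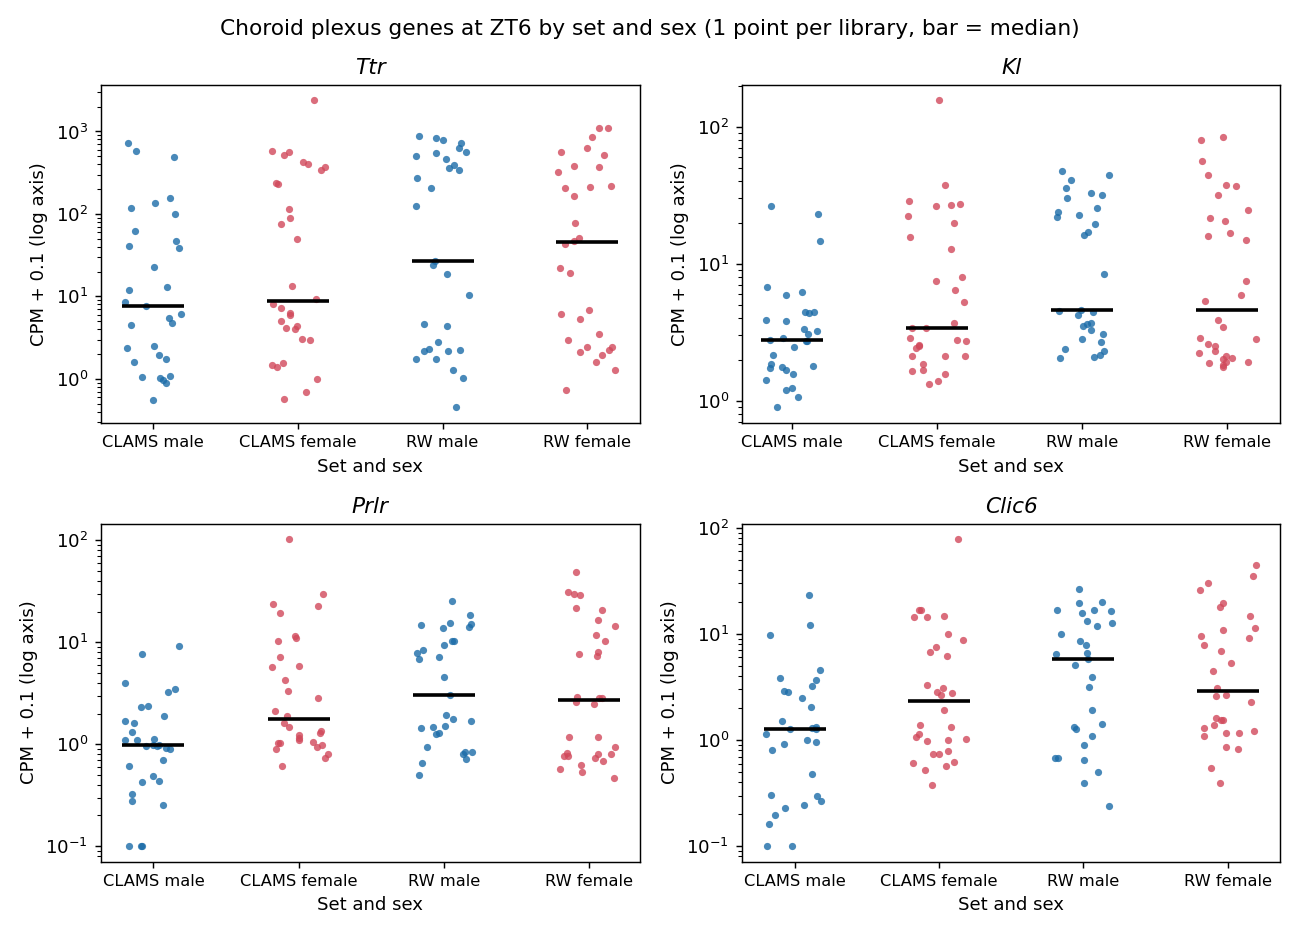
Levels of Ttr, Kl, Prlr and Clic6 at ZT6 (CPM + 0.1, log axis) by set and sex (x axis), with 1 point per library and bars at the median. The groups overlap in all 4 genes, and the median of Ttr is 7.61 CPM in CLAMS males and 8.6 CPM in CLAMS females, against 26.6 CPM in RW males and 45.1 CPM in RW females.

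CLAMS minus RW was below 0 for all 9 genes and passed for 8, all but Folr1, where 62.2% of all 18841 genes passed and 32.9% passed in that direction. Kl was lower by -1.15 ± 0.30 log2 units (adjusted p = 0.000426), Clic6 by -1.23 ± 0.35 (0.00142), Prlr by -1.16 ± 0.35 (0.00272), Ttr by -1.44 ± 0.51 (0.0106) and Tmem72 by -1.68 ± 0.60 (0.012), by edgeR. Folr1 was at -0.72 ± 0.35 (adjusted p = 0.0673). Slc4a5 and Mfrp had 2 groups of CLAMS males with all libraries at 0 and Cldn2 had 1, so an additive model, chosen after seeing the data, was used for their size: -1.38 ± 0.42 for Slc4a5, -1.44 ± 0.43 for Mfrp and -1.20 ± 0.40 for Cldn2 (adjusted p = 0.0028, 0.00231 and 0.00617, edgeR). That model also called 8 of 9, and 61% of all genes. The median over the 9 was -1.44 in the model of group means and -1.18 in the additive model, against -0.02 and -0.01 over all genes. Without the libraries of replicate number 1 the count of calls was 4.

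With the Ttr level as a covariate 7 of 8 genes were still lower in CLAMS, from -0.72 ± 0.18 (Slc4a5) to -0.35 ± 0.12 (Prlr), where 32.4% of all genes were lower and 61.3% passed. Folr1 was at 0.19 ± 0.12. In the model without the covariate, other lists moved with the set. There 62.2% of all genes passed and 32.9% passed as lower. The other choroid plexus genes passed in 21 of 37, 19 lower and 2 higher, and Car12 was at -1.12 ± 0.13 (adjusted p = 3.7e-12, edgeR). Striatal neuron genes were lower in 12 of 15, with a summed level of 188 to 1210 CPM in CLAMS males, 211 to 1800 in CLAMS females, 234 to 1980 in RW males and 207 to 2310 in RW females. Blood genes were higher in 5 of 7, at 110 to 378, 44.4 to 169, 63.5 to 174 and 39.3 to 100 CPM in the same order, and ependymal genes passed in 5 of 13. Their part in the result was not tested. The set, its light at collection and the library name series (each set and sex has its own name prefix) cannot be told apart.

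Males minus females at ZT6, averaged over the sets, was below 0 for all 9 genes and passed for 4, where 58.1% of all genes passed and 30.5% passed in that direction. The sexes had different library name prefixes in both sets, so sex and the name series cannot be told apart. Prlr was at -1.21 ± 0.35 log2 units (adjusted p = 0.00195), Clic6 at -0.83 ± 0.35 (0.0338) and Tmem72 at -1.21 ± 0.52 (0.041), by edgeR. Cldn2 also passed (adjusted p = 0.0278), at -1.04 ± 0.40 in the additive model. All 9 passed with no expression filter, where 29.2% of all genes did. In the same comparison striatal neuron genes were lower in males in 10 of 15 (median -0.55), blood genes higher in 5 of 7 (median 0.99) and meningeal genes higher in 8 of 14 (median 0.17). Their part in the result was not tested, and the summed levels of the striatal and blood lists by set and sex are those given with the sets. The meningeal list summed to 92.6 to 172 CPM in CLAMS males, 100 to 172 in CLAMS females, 99.0 to 214 in RW males and 92.3 to 206 in RW females. Without the libraries of replicate number 1, 2 or 3 the count was 1 each time, and without number 4 it was 2. Without the CLAMS female highest in these genes 2 were called, and without the library labelled HET/WT whose Snhg14 goes against its label 6 were.

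The sex difference was tested within each set. Each set and sex has its own library name prefix, so sex within a set and the name series cannot be told apart. Within CLAMS 8 of 9 genes were lower in males (63.1% of all genes passed, in either direction), with Prlr at -2.25 ± 0.52 (adjusted p = 0.000109), Ttr at -2.23 ± 0.76 (0.00819), Clic6 at -1.56 ± 0.53 (0.0077) and Kl at -1.31 ± 0.44 (0.00731), by edgeR. Slc4a5, Mfrp and Cldn2 are among the 8. They had 2, 2 and 1 groups of CLAMS males with all libraries at 0, so their calls depend on the fit. The summed level of the 9 genes had a median of 11.8 CPM in CLAMS males and 15.0 CPM in CLAMS females. High libraries were 4 of 31 and 11 of 32. Within RW 0 of 9 passed (33.8% of all genes) with 0 at an unadjusted p under 0.05, and the differences ran from -0.17 ± 0.45 (Prlr) to 0.47 ± 0.67 (Ttr). Both within-set comparisons were added after seeing the data and were not refitted without the CLAMS female highest in these genes. The difference between the sets in the sex difference passed for 4 genes (51.8% of all genes, 29.1% in the same direction), namely Prlr at -2.08 ± 0.69 (adjusted p = 0.00831), Cldn2 (0.0152), Ttr at -2.70 ± 1.02 (0.0203) and Slc4a5 (0.0435). In the additive model Prlr alone of the 9 passed, at -1.92 ± 0.68 (adjusted p = 0.0128, edgeR), where 50.7% of all genes passed. All 9 passed with no expression filter (26.4% of all genes). Striatal neuron genes passed as lower in 7 of 15 in that difference (median -0.88), cortical excitatory neuron genes in 13 of 14, 3 higher and 10 lower (median -0.24), and blood genes in 4 of 7, 3 higher and 1 lower (median 0.49), and their part was not tested. Without the libraries of replicate number 1 the count was 1, without number 2 it was 8, without number 3 or 4 it was 0, and without the CLAMS female highest in these genes it was 3.

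The genotypes were compared with WT/WT. Ttr was at 0.869 to 2390 CPM in HET/TG (median 47.1, n = 32), 0.462 to 884 CPM in HET/WT (median 6.64, n = 32), 0.351 to 1090 CPM in WT/TG (median 7.75, n = 30) and 0.476 to 1110 CPM in WT/WT (median 16, n = 32). The 4 ranges overlapped almost whole. HET/TG minus WT/WT was above 0 for all 9 genes, from 0.84 ± 0.46 (Prlr) to 1.62 ± 0.67 (Ttr), with 6 at an unadjusted p under 0.05 (1144 of 18841 genes were), and 0 passed (0.0478% of all genes) and the lowest adjusted p was 0.744 (Clic6, edgeR). With no expression filter, however, all 9 passed for HET/TG minus WT/WT, where 0.219% of all genes did, and DESeq2 called 0 with the filter. In the additive model HET/WT minus WT/WT ran from -0.09 ± 0.58 (Slc4a5) to 0.49 ± 0.71 (Ttr) and WT/TG minus WT/WT from 0.04 ± 0.48 (Folr1) to 0.27 ± 0.58 (Tmem72). In the model of group means each had 0 of 9 called (0.0425% of all genes for HET/WT and 0.0159% for WT/TG) and 0 at an unadjusted p under 0.05, and Ttr was at -0.40 ± 0.77 in WT/TG minus WT/WT, below 0. With no expression filter 1 of 9 passed for HET/WT (0.28% of all genes) and 1 for WT/TG (0.199%). High libraries were 13 of 32 in HET/TG, 11 of 32 in HET/WT, 12 of 30 in WT/TG and 7 of 32 in WT/WT.

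The light cycles were compared over both sets. Prlr was at 0.18 to 103 CPM on 11:11 (median 2.23, n = 63) and 0 to 23.4 CPM on 12:12 (median 1.25, n = 63), and Kl was at 1.13 to 156 CPM on 11:11 (median 4.28) and 0.794 to 37.6 CPM on 12:12 (median 3.42). The ranges overlapped, with the highest library on 11:11. 11:11 minus 12:12 was above 0 for all 9 genes, at 0.81 ± 0.36 for Prlr and 0.65 ± 0.30 for Kl (adjusted p = 0.123 and 0.145, edgeR), and 0 of 9 passed (12.6% of all genes), with 2 at an unadjusted p under 0.05. For Mfrp the model of group means gave 0.71 with no usable SE, so its test there is void, and the additive model gave 0.71 ± 0.42 (adjusted p = 0.305, edgeR). With no expression filter 7 of 9 passed, where 5.6% of all genes did. With the Ttr level as a covariate Prlr passed, at 0.35 ± 0.12 (adjusted p = 0.0317), 1 of 8 genes where 12.5% of all genes passed. The difference between the sets in the light cycle effect passed for 0 of the 7 genes with a usable SE, all but Mfrp and Cldn2 (5.32% of all genes passed), with 4 at an unadjusted p under 0.05. In the additive model all 9 could be tested and 0 passed. With no expression filter 7 passed, where 3.27% of all genes did. The difference in the HET/WT effect by light cycle, sex or set passed for 0 of 9 genes and 0% of all genes each (edgeR, with 2, 0 and 0 of the 9 at an unadjusted p under 0.05). With no expression filter 9, 6 and 1 of the 9 passed, where 0.277%, 0.217% and 0.253% of all genes did.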

How the data were processed

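Per the labels, total RNA of left prefrontal cortex was made into directional libraries after ribosomal RNA depletion. The authors deposited raw, unnormalized counts of reads for 55487 identifiers, in 1 table for the atlas and 1 for ZT6. The submitters' processing notes name mm10, limma, SAMtools, STAR and Trim Galore. The counting tool and strand setting were not found in the sources used here. Groups came from the labels, and 1 labelled sample (RW male, 12:12, WT/TG, replicate 3) was not analysed here.

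The tables were fitted apart (R 4.3.3, edgeR 4.0.16). filterByExpr left 17193 genes in the atlas and 18841 at ZT6. TMM-scaled counts were tested by quasi-likelihood (glmQLFit, glmQLFTest), and p-values were adjusted after Benjamini and Hochberg over every gene tested, with calls under 0.05. The atlas model held sex with a cosine and sine of 24 h. The ZT6 model held 1 mean per group, with contrasts weighting groups equally. All 9 genes are named in each comparison or counted. Of other lists, up to 3 genes with the smallest p are named, and the 10 genes most like the 9 in each table, with a few more chosen after their values were seen. A pseudocount of 0.5 CPM was used for log2 levels. The scripts were tested on simulated data. The 9 genes and all lists were chosen with earlier results of these data known. Replicate numbers did not pair samples, since residuals of same-numbered libraries correlated with a median of 0.00268 in the atlas and 0.0075 at ZT6. No 2 libraries were identical. DESeq2 1.42.0 and limma 3.58.1 gave alternatives.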

Additional observations from a re-analysis of the deposited data

Results flagged for a closer look

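In 5 of the 46 label groups of 4 to 6 libraries, 1 library stood far from the others in Ttr, where chance gives about 1 in 20 groups. These were an atlas male at ZT18 (replicate 4, 716 CPM, against 1.84 to 2.39 CPM in the other 4), an atlas male at ZT21 (replicate 1, 519 CPM, against 1.95 to 3.67 CPM), an atlas female at ZT6 (replicate 1, 180 CPM, against 0.801 to 4.37 CPM), a CLAMS female on 12:12 with HET/WT (replicate 3, 567 CPM, against 2.88 to 4.07 CPM) and an RW female on 11:11 with HET/WT (replicate 2, 862 CPM, against 0.63 to 2.9 CPM). In all 5 the library that stood apart was the highest.

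The difference between males and females differed between the sets, by a test of that difference, for Ttr (-2.70), Prlr (-2.08), Slc4a5 (-2.79) and Cldn2 (-2.74), each as CLAMS minus RW on the log2 scale. Of all genes 51.8% passed the same test, against 44.4% of the 9. Without 1 replicate number 0 to 8 of the 9 were called, and in the additive model Prlr alone passed. The values for Slc4a5 and Cldn2 come from a model in which some groups of CLAMS males had 0 counts, so they depend on the fit and are no bounds. In the additive model they were -1.26 ± 0.82 and -1.63 ± 0.79 (SE).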

How the results depend on the processing

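All counts here are of the 9 genes called, or of 8 with the Ttr covariate. In the main models 41.4% of all genes passed for the daily rhythm, 41.1% for the atlas sex difference and 62.2% for CLAMS minus RW. For males minus females at ZT6 58.1% passed, for the sex difference between sets 51.8% and for 11:11 minus 12:12 12.6%. These shares changed with the setting, so a count alone is no result about the 9 genes. A count with no share beside it, here or above, is given without the share of all genes at that setting. For the daily rhythm (5), the count was 3 in DESeq2 and 2 in the rank-based test (42% of all genes each). It was 2 with the Ttr covariate (38.1%) and 0 in females alone (19.2%). It was 1 in libraries numbered 1 to 24 (33%) and 0 in those numbered 25 to 46 (11.7%). It was 3 with no expression filter, 2 with the 8 times as a factor, and 2 to 8 without 1 replicate number. The atlas sex difference (0) gave 1 in DESeq2 (41.1% of all genes), 1 in the rank-based test (42.6%) and 1 with the Ttr covariate (42%). CLAMS minus RW (8) gave 4 to 7 without 1 replicate number. Males minus females at ZT6 (4) gave 9 with no filter (29.2% of all genes), 7 in DESeq2 and 7 with the Ttr covariate. It gave 2 without the library highest in Ttr and 1 to 2 without 1 replicate number. The sex difference between sets (4) gave 9 with no filter (26.4% of all genes) and 1 in the additive model (50.7%). It gave 8 in DESeq2, 1 in the rank-based test and 0 to 8 without 1 replicate number. With the Ttr covariate Folr1 was at 0.65 in that comparison, the reverse of its value without it.

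With no filter, calls also appeared for HET/TG (9, where 0.219% of all genes passed), HET/WT (1, 0.28%), WT/TG (1, 0.199%) and 11:11 (7, 5.6%). They also appeared for the HET/WT effect by light cycle (9, 0.277%), sex (6, 0.217%) and set (1, 0.253%), and for the light cycle effect by set (7, 3.27%). DESeq2 called 2 for 11:11 and 1 for the HET/WT effect by light cycle, and the Ttr covariate gave 1 for 11:11 (12.5% of all genes). The cause was not tested. A model with replicate number as a block gave 7 for males minus females at ZT6 and 2 for the sex difference between sets, and changed no other count by over 1.5 times. With a pseudocount of 0.1 the median r of the 36 pairs was 0.91 in the atlas and 0.91 at ZT6. High libraries stayed within 1.5 times under all 4 other definitions tried. Depth limits Mfrp, Slc4a5, Cldn2 and Tmem72, which were at 0 in many libraries. The covariate, the additive model and the models without a named library were chosen after seeing the data.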
